A study of Drosophila melanogaster with 9 samples.

Results

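The genes described here are 10 that encode contractile proteins of larval body wall muscle: Mhc, Mlc1, Mlc2, up, wupA, Tm1, Tm2, Act57B, Act87E and sls. They were listed by name, as sarcomere genes of the larva, with no threshold on their values, and they are 10 of the 17715 genes to which the transcripts of the deposited table could be assigned. RNA of whole third-instar larvae of *Drosophila melanogaster* was sequenced after removal of ribosomal RNA in 9 libraries, 3 from metafemales (XXX), 3 from females (XX) and 3 from males (XY). The females and males were the wild-type strain Canton S. The metafemales came from mothers of the stock C(1)DX, ywf/winscy, in which the X chromosomes are joined, crossed to Canton S males, and were picked as female larvae with black mouthparts, so that they differed from the controls in strain background as well as in X chromosome number, and these cannot be told apart here. The authors give no stage within the third instar, so that a difference in stage cannot be told apart from strain or X chromosome number either. The labels name no treatment. Nothing in the labels says that replicates came from separate cultures, and the p-values measure only the spread between these libraries.

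A sarcomere is the repeating unit of a muscle fibre, in which thick filaments of myosin slide along thin filaments of actin. Calcium switches the sliding on through troponin and tropomyosin, which lie along the thin filament and uncover its myosin binding sites. The Z-disc anchors the thin filaments, and large elastic proteins of the titin kind connect it to the thick filaments. In the *Drosophila* larva these proteins fill the body wall muscles used for crawling. Among the genes described, the troponin genes up and wupA are on the X chromosome and the other 8 are autosomal, so that an added X chromosome gives metafemales an additional copy of these 2 troponin genes alone.

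The depth was high throughout, with summed counts of 138223737 to 184268612 for the females, 130919406 to 177910781 for the males and 139954374 to 168844124 for the metafemales. Levels are given below as CPM, the counts of a gene scaled to a common library total, which compare 1 gene between libraries. The roX1 RNA, made by males for dosage compensation, was at 238 to 325 CPM in males and at 3.83 to 18.4 CPM in the other libraries, as the labels require. In metafemale replicate 1, transcripts that the authors assembled and that belong to no gene here held 13.4% of the counts, against 24.6% to 32.6% in the other 8 libraries. Male replicate 2 stood apart from the other males (Pearson's r of log2 CPM over genes 0.974 and 0.963, against 0.988 between these 2). Whole larvae mix many tissues, and in such bulk samples more cells of a type and more RNA per cell cannot be told apart.

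Together the 10 genes held 3.61% ± 0.816 of all counts in metafemales, 1.62% ± 0.326 in females and 1.84% ± 0.730 in males (SD, n = 3). The lowest metafemale library, at 2.79%, was above the highest female library, at 1.93%, and above the highest male library, at 2.54%. As a share of the counts assigned to genes, which leaves the assembled transcripts out, they held 4.61% ± 0.736 in metafemales and 2.28% ± 0.524 in females. Metafemales had 2.26-fold the female level at the median gene of the 10, and the metafemale libraries gave 2.89, 2.25 and 1.73 when each was set against the female mean. Without metafemale replicate 1 the median was 1.98-fold. The median over 13967 genes was 0.956. In 9 of the 10 genes every metafemale library was above every female library, a pattern found in 25.1% of all genes tested. With edgeR's quasi-likelihood test, adjusted over all 11972 genes tested, these 9 genes rose in metafemales, against 20.8% of all genes tested, and all 10 had passed the filter on low counts. The exception was sls. The log2 fold change was also above 1 in 6 of them, against 9.89% of all genes tested. None of the 10 fell, where 17.7% of all genes tested did, and the count lower at an unadjusted p under 0.05 was 0 with edgeR and with DESeq2. Scaling by the counts assigned to genes turned the balance of all genes to 16.5% higher and 25.8% lower, and 9 of the 10 genes were called higher there too. The median log2 fold change was 1.17 over the 10 genes and -0.02 over all genes tested.

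**Figure D1:**
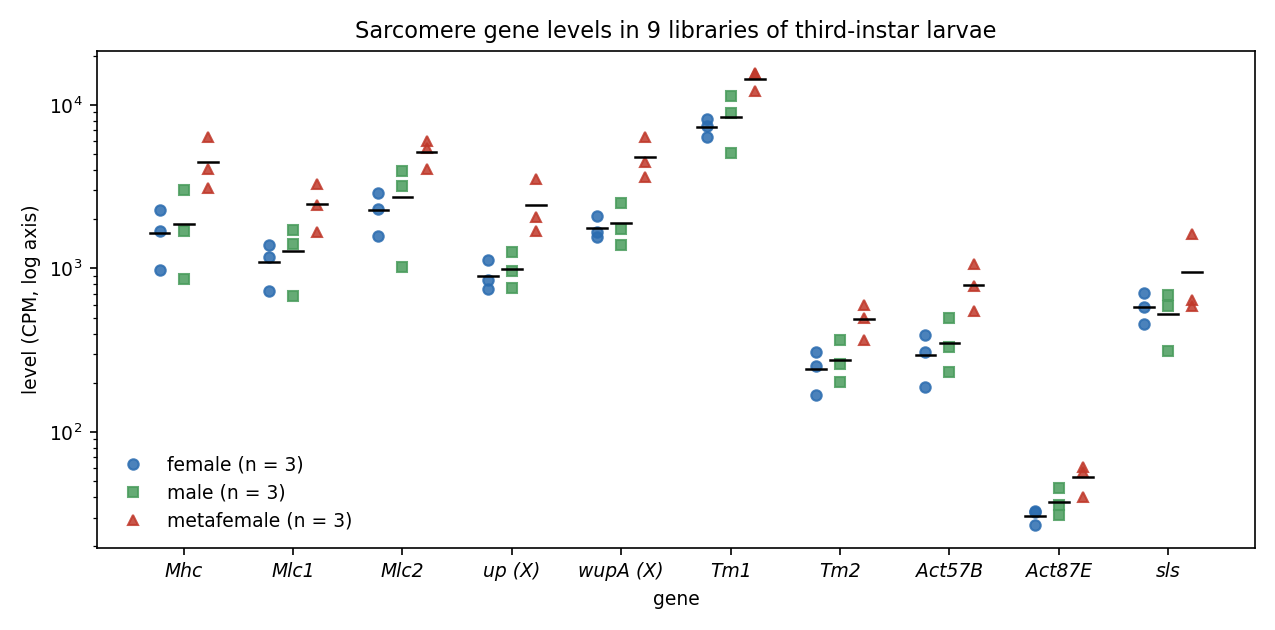
Level of each of the 10 genes in the 9 libraries, in CPM on a log scale, with 1 point per library, grouped as females, males and metafemales, and a bar at the group mean. Metafemale points lie above the female points for 9 genes, while for sls 2 of the 3 metafemale points lie within the female range.

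The thick filament is built from Mhc, the muscle myosin heavy chain gene, which spans 16766566 to 16788766 on the plus strand of chromosome arm 2L (this and the positions below are from the Ensembl annotation of BDGP6.54). Mhc was at 2262, 1685 and 978 CPM in female replicates 1, 2 and 3, at 3035, 859 and 1702 CPM in the males, and at 6320, 4082 and 3090 CPM in the metafemales. Every metafemale library was above all 6 others, while the male range enclosed the female range. Mhc rose in metafemales by 1.43 ± 0.37 on the log2 scale (SE; edgeR adjusted p = 0.0236).

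Mlc1, on 3R (27657078 to 27660177, minus strand), encodes the essential light chain of muscle myosin. Its levels were 1385, 1175 and 729 CPM in females, 1723, 682 and 1405 CPM in males and 3284, 2440 and 1666 CPM in metafemales, where the lowest metafemale library was above the females but below male replicate 1. Mlc2, on 3R (30171438 to 30174551, minus strand), encodes the regulatory light chain, and had 2886, 2316 and 1587 CPM in females, 3940, 1025 and 3194 CPM in males and 6003, 5456 and 4045 CPM in metafemales. All 3 metafemale libraries were above the other 6. Relative to females, Mlc1 rose by 1.16 ± 0.32 (SE; edgeR adjusted p = 0.0287) and Mlc2 by 1.19 ± 0.28 (adjusted p = 0.0159) on the log2 scale. The ratio of Mlc1 to Mlc2 counts stayed between 0.412 and 0.666 in the 9 libraries.

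The X-linked gene up (13593474 to 13602578, minus strand) encodes troponin T, which ties the troponin complex to tropomyosin. It was at 1125, 844 and 745 CPM in females, 1269, 756 and 967 CPM in males and 3535, 2052 and 1695 CPM in metafemales. The X-linked gene wupA (18105568 to 18116922, minus strand) encodes troponin I, the inhibitory subunit, and was at 2091, 1664 and 1557 CPM in females, 2523, 1388 and 1752 CPM in males and 6343, 4469 and 3618 CPM in metafemales. For both genes the metafemale libraries lay above all others, and the female and male ranges overlapped. The log2 fold change against females was 1.40 ± 0.28 for up (SE; edgeR adjusted p = 0.00929) and 1.43 ± 0.22 for wupA (adjusted p = 0.0037). The adjusted p of wupA was the lowest of the 10, and up and wupA were the only ones of the 10 that rose in each of the 14 settings tried. The counts of wupA were 1.79 to 2.18 times those of up in every library.

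Tm1 and Tm2 encode tropomyosins, which run along the thin filament, and they lie next to each other on the plus strand of 3R (15278220 to 15308779 and 15310193 to 15315197). Tm1 also makes cytoskeletal tropomyosins outside muscle. Tm1 had the highest CPM of the 10 in every library, at 8155, 7479 and 6391 CPM in females, 11330, 5061 and 8895 CPM in males and 15380, 15590 and 12230 CPM in metafemales. Tm2 was at 310, 252 and 169 CPM in females, 363, 203 and 259 CPM in males and 600, 499 and 365 CPM in metafemales. In both genes the metafemale libraries were above the other 6. Tm1 rose by 0.99 ± 0.19 (SE; edgeR adjusted p = 0.0078) and Tm2 by 0.998 ± 0.28 (adjusted p = 0.0303) on the log2 scale against females.

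Act57B, on 2R (20944021 to 20946431, plus strand), and Act87E, on 3R (13425983 to 13428375, plus strand), encode actins of larval muscle, the subunits of the thin filament. Their coding sequences are nearly identical to those of other actin genes, and reads shared between the copies make the division of counts among them uncertain. Act57B was at 393, 310 and 189 CPM in females, 495, 232 and 330 CPM in males and 1058, 781 and 553 CPM in metafemales, with all metafemale libraries above the rest. Act87E was at 32.5, 32.8 and 26.9 CPM in females, 45.7, 35.9 and 31.0 CPM in males and 57.3, 61.3 and 40.2 CPM in metafemales, where the lowest metafemale library was above the females but below male replicate 1. Act57B rose by 1.41 ± 0.33 (SE; edgeR adjusted p = 0.017) and Act87E by 0.80 ± 0.20 (adjusted p = 0.0202) on the log2 scale against females. The ratio of Act57B to Act87E counts lay between 12.8 and 18.5 in the metafemale libraries, above the female libraries (7.02 to 12.1) and the male libraries (6.46 to 10.8).

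The titin-like gene sls, on 3L (2039681 to 2115611, minus strand), encodes the elastic proteins that connect the Z-disc to the thick filament. It was at 709, 584 and 455 CPM in females, 685, 591 and 314 CPM in males and 1625, 640 and 586 CPM in metafemales. Metafemale replicate 1 was high, and the other metafemale libraries lay within the female range. The log2 fold change of 0.66 ± 0.37 did not pass the test (SE; edgeR adjusted p = 0.199), and without metafemale replicate 1 it was 0.17 (adjusted p = 0.635). An antisense RNA gene, asRNA:CR42860, overlaps exons of sls over 1089 bases, and was at 0.135 to 3.22 CPM.

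**Figure D2:**
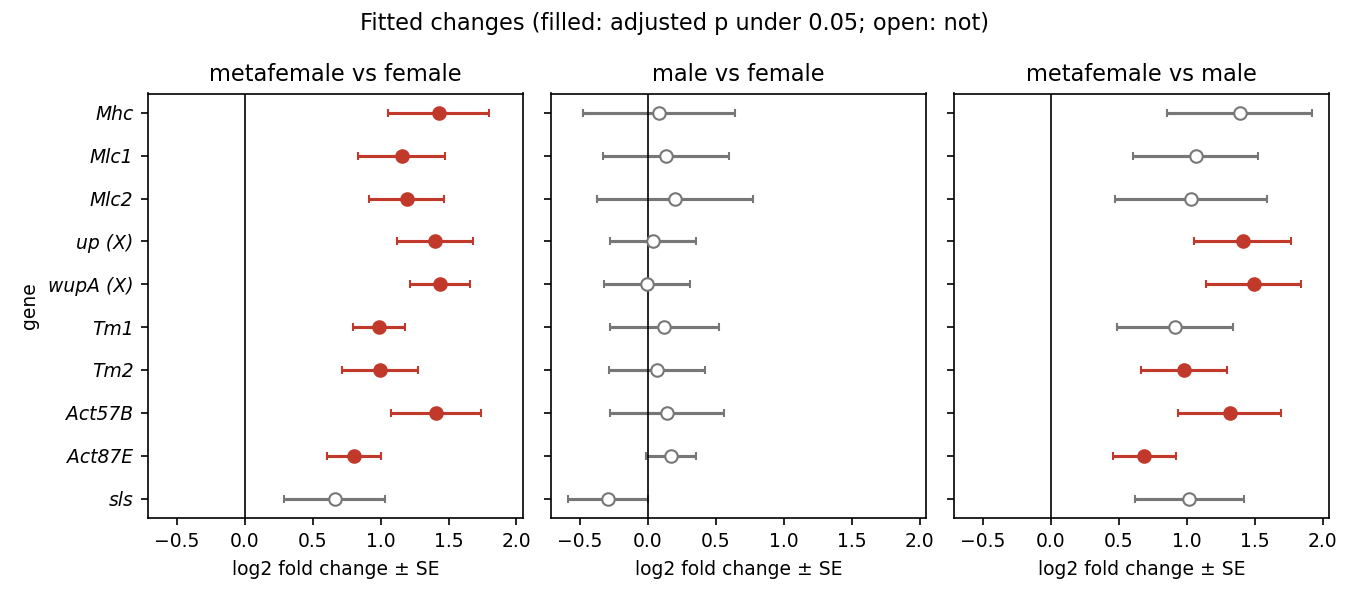
Log2 fold change of each of the 10 genes with its standard error, from edgeR, in 1 panel each for metafemales against females, males against females and metafemales against males, which share libraries; filled points passed the test. Values lie between 0.66 (sls) and 1.43 in the first panel, between -0.29 (sls) and 0.20 (Mlc2) in the next, and between 0.69 (Act87E) and 1.49 (wupA) in the last.

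In males against females, none of the 10 genes passed the test with edgeR, where 19.5% of 13677 genes tested were called higher and 1.28% lower. All 7 testis markers were among the genes called higher, and they summed to 75.2 to 121 CPM in males and 3.35 to 3.96 CPM in females. How much of the 19.5% came from testis was not tested, so it is no general rate of difference between the sexes. At an unadjusted p under 0.05 the count among the 10 was also 0, with edgeR as with DESeq2. The log2 fold changes ran from -0.29 ± 0.29 for sls to 0.20 ± 0.57 for Mlc2 (SE), and that of the X-linked genes was 0.04 for up and -0.01 for wupA. No gene of the 10 had all male libraries above all female libraries, where 26.1% of all genes tested did. The wide spread between the males limits this comparison, since the highest male library had 1.47-fold to 3.85-fold the CPM of the lowest, depending on the gene. Without male replicate 2, which was the lowest male library for 8 of the 10 genes, the median ratio of male to female level was 1.33, against 1.14 with it.

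Against males, 7 of the 10 genes had all metafemale libraries above all male libraries (18.3% of all genes tested), and 5 rose with edgeR (17.4% of 13784 genes tested). These were wupA, by 1.49 on the log2 scale (adjusted p = 0.014), up by 1.41 (adjusted p = 0.0183), Act57B by 1.32 (adjusted p = 0.0299), Tm2 by 0.98 (adjusted p = 0.0433) and Act87E by 0.69 (adjusted p = 0.0492). The values of the others were 1.39 for Mhc (adjusted p = 0.0731), 1.07 for Mlc1, 1.03 for Mlc2, 0.91 for Tm1 and 1.02 for sls (adjusted p = 0.0802), beside a median of -0.11 over all genes tested. Of all genes called against males, 38.2% were higher, and 28.2% when scaled by the column total or 23.6% by the counts assigned to genes. By DESeq2, 9 of the 10 were called higher, against 17.1% of 16716 genes tested.

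Leaving out some single libraries changed how many of the 10 rose against females. Leaving out any library also changed the calls over all genes, with 1871 to 2298 genes higher, against 2493 in the main fit. All 9 calls of the main fit were kept without metafemale replicate 3 and without female replicate 1. The call was kept by up, wupA and Tm1 without female replicate 2, by up, wupA, Tm1 and Act87E without metafemale replicate 2, by Mlc2, up, wupA, Tm1 and Act87E without metafemale replicate 1, and by Mhc, Mlc2, up, wupA, Tm1 and Act57B without female replicate 3. In a fit of all 9 libraries together, the calls were up, wupA, Act57B and Act87E. That fit called 14.7% of all genes tested higher, against 20.8% in the main fit. The log2 fold changes of all 10 genes stayed above 0 in each of the 14 settings.

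Within a group, the 10 genes were mostly high or low in the same libraries. In females, replicate 1 was the highest for 9 of the 10 genes, Act87E being the exception, and replicate 3 was the lowest for all 10. In males, replicate 1 was the highest for all 10, and replicate 2 was the lowest for 8, with replicate 3 the lowest for Act87E and sls. In metafemales, replicate 1 was the highest for 8, with replicate 2 the highest for Tm1 and Act87E, and replicate 3 was the lowest for all 10. Over the 45 pairs of genes, Pearson's r of log2 CPM over the 9 libraries, which share the group differences, ran from 0.456 to 0.998 with a median of 0.924. With the group means removed, r ran from 0.157 to 0.997 with a median of 0.831. The actin Act57B and the tropomyosin Tm2 gave the highest r (0.998), followed closely by the troponins up and wupA (0.99), and sls was the least like the others (median r 0.676).

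The 2 X-linked troponin genes can be set against their 8 autosomal partners inside each library, which removes the level of the whole set. The mean log2 CPM of up and wupA exceeded the mean of the 8 autosomal genes by 0.90, 0.78 and 1.17 in the female libraries, by 0.79, 1.08 and 0.90 in the males and by 1.39, 1.14 and 1.27 in the metafemales. The mean difference was 0.32 higher in metafemales than in females and 0.03 lower in males than in females. The lowest metafemale value was below the highest female value, so that the groups overlapped, and 3 libraries against 3 cannot give an exact two-sided permutation p below 0.10. The ratio of wupA to Tm1 counts lay between 0.287 and 0.412 in the metafemale libraries, above the female libraries (0.222 to 0.256) and the male libraries (0.197 to 0.274). The ratio of wupA to Mhc counts, at 1.004 to 1.17 in metafemales and 0.924 to 1.59 in females, did overlap. So did the ratio of up to Mhc counts, at 0.503 to 0.559 in metafemales and 0.497 to 0.762 in females. Median log2 fold changes against females were 1.42 for the 2 X-linked genes and 1.08 for the 8 autosomal genes, where all X-linked protein-coding genes tested had a median of 0.44 and all autosomal ones a median of -0.10. Among the 8, however, Mhc (1.43) and Act57B (1.41) were near up (1.40) and wupA (1.43), while the remaining autosomal genes were lower.

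**Figure D3:**
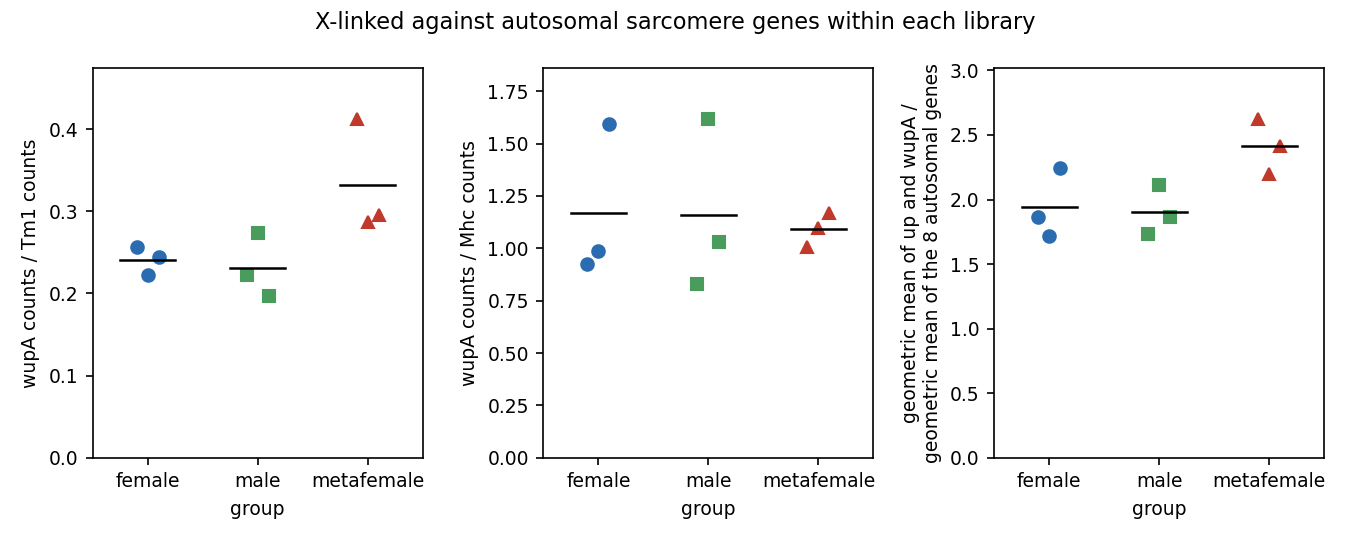
Ratios within each library, with 1 point per library and a bar at the group mean: wupA over Tm1 counts, wupA over Mhc counts, and the geometric mean CPM of the 2 X-linked troponin genes over that of the 8 autosomal genes. The metafemale points lie above the others for wupA over Tm1 (0.287 to 0.412), and overlap the female points for wupA over Mhc.

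Divided by length, as CPM per kilobase of transcript, the order of the genes in females was Tm1 (5762 ± 716), wupA (1527 ± 244), Mlc1 (1178 ± 360), Mlc2 (990 ± 285), up (593 ± 129), Mhc (244 ± 93.0), Tm2 (197 ± 57.1), Act57B (172 ± 59.4), Act87E (19.6 ± 2.12) and sls (12.0 ± 2.54), each as mean ± SD with n = 3. The female ranges of neighbours in this order were apart only between Tm1 and wupA, up and Mhc, Act57B and Act87E, and Act87E and sls. The female ranges of the other neighbours overlapped. Within single libraries, however, wupA was above Mlc1, and Mlc1 above Mlc2, in 9 of 9, Mlc2 was above up and Mhc above Tm2 in 8 of 9, and Tm2 was above Act57B in 6 of 9.

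Single transcripts of these genes were also estimated by the authors, who divided the reads of shared exons between them, and they are less certain than the gene sums. Of the 96 transcripts of the 10 genes, 71 were tested and 8 rose in metafemales, against 5.41% of 28020 transcripts tested. These were Mlc1-RD, up-RD, up-RG, wupA-RA, wupA-RB, wupA-RD, Tm1-RH and Tm2-RB, with the lowest log2 fold change for Tm2-RB (1.24) and the highest for up-RD, followed by up-RG (1.83). Most of these are minor forms. In metafemales Mlc1-RD held 0.91%, up-RD 0.19%, wupA-RB 5.72%, wupA-RD 0.22%, Tm1-RH 0.08% and Tm2-RB 2.4% of the counts of their genes. The exceptions were wupA-RA, which held 91.4% of wupA counts in metafemales and rose by 1.44 (edgeR adjusted p = 0.0316), and up-RG, which held 14.7% of up counts. The dominant transcripts of the other genes did not pass the test. Their log2 fold changes were 1.148 for Mlc1-RB (adjusted p = 0.12), 1.19 for Mlc2-RA (adjusted p = 0.085), 1.32 for up-RA (adjusted p = 0.059), 0.99 for Tm2-RA (adjusted p = 0.12), 1.40 for Act57B-RA (adjusted p = 0.086) and 0.81 for Act87E-RA (adjusted p = 0.10). The long sls-RV and sls-RT held 70.9% and 24.0% of sls counts in metafemales, with log2 fold changes of 0.83 and 0.22 (adjusted p = 0.37 and 0.90). Most Tm1 counts were from Tm1-RM, whose level was 6751 ± 899 CPM (SD, n = 3) in the females and 13750 ± 1841 CPM in the metafemales (log2 fold change 1.04, edgeR adjusted p = 0.057). The remaining Tm1 transcripts summed to 590 ± 44.5 CPM in the females and to 651 ± 56.8 CPM in the metafemales. The estimates of single Mhc transcripts changed within groups. Mhc-RC, for example, held 24.8% to 37.4% of Mhc counts in 6 libraries and was at 0 in the other 3, Mhc-RD and Mhc-RG were at 0 in the same 3, and Mhc-RF held 2.48% to 27.5% over the 9 libraries. Transcripts that start at 16767777 (Mhc-RQ, RS, RU and RV) held 91.0% of Mhc counts in female replicate 1, 61.8% in male replicate 3 and 60.1% in metafemale replicate 2, against at most 6.49% in the other 6 libraries. In these other 6 libraries, the 14 transcripts that start at 16766734 held 93.3% to 99.8%.

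**Figure D4:**
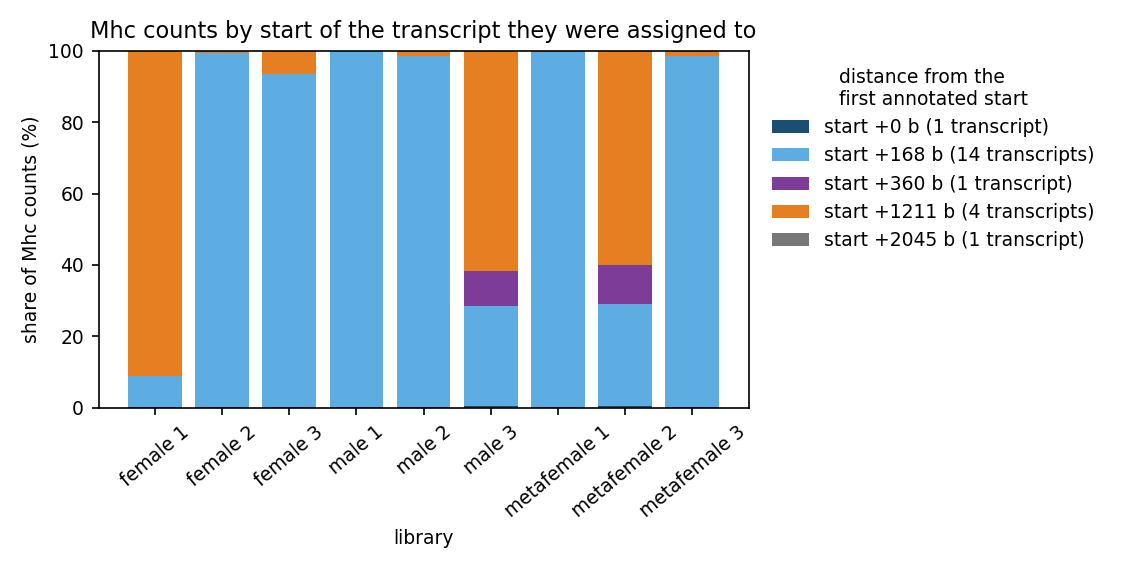
Share of Mhc counts, in percent, assigned to transcripts by their start, as distance from the first annotated start, in each of the 9 libraries. Female replicate 1, male replicate 3 and metafemale replicate 2 have most of their counts at the same later start, and the other 6 libraries have theirs at an earlier one.

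The wider muscle apparatus was described by 12 lists, which included non-muscle actin and myosin genes for comparison. They held 106 genes, of which all but 4 were tested. Of those tested, 35 rose in metafemales against females (34.3%) and 9 fell (8.8%), against 20.8% and 17.7% of all genes tested. Of the thick filament and its elastic links, 3 of 6 rose: Strn-Mlck by 1.42 on the log2 scale (adjusted p = 0.0112), the giant kinase gene Obsc by 1.39 (adjusted p = 0.0195) and Mf, a myosin-binding protein, by 0.92 (adjusted p = 0.0212). In the thin filament list, 3 of 9 rose and 1 fell. The calcium sensor TpnC47D, a troponin C, rose from 28.4 to 128 CPM (log2 fold change 2.16, adjusted p = 0.00325), Mp20 by 1.57 and TpnC25D by 1.47, whereas sals, which lengthens thin filaments, fell by 1.07 (adjusted p = 0.00107). Of the Z-disc list 6 of 12 rose and 1 fell, with Mlp60A up by 1.47, Msp300 by 1.02 and the X-linked alpha-actinin gene Actn, the crosslinker of the Z-disc, by 0.90 (adjusted p = 0.0123), while jbug fell by 0.58 (all from edgeR).

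In the calcium list 3 of 7 genes rose, where 20.8% of all genes tested did. SclB, a sarcolamban, which inhibits the calcium pump, was at 24.1, 24.8 and 20.2 CPM in females and 102.1, 121.6 and 23.3 CPM in metafemales (log2 fold change 1.86, adjusted p = 0.037), where 1 metafemale library lay in the female range and where the counts may be divided with SclA, which lies over the same stretch of 2L. The others were RyR, the calcium release channel, from 9.18 to 29.5 CPM (log2 fold change 1.67, adjusted p = 0.00523), and SERCA, the pump that returns calcium to the store, from 78.3 to 161 CPM (1.03, adjusted p = 0.0154). Of the attachment list 8 of 13 rose, with the collagen IV genes vkg by 1.72 (adjusted p = 0.00134) and Col4a1 by 1.28, and all 5 X-linked ones, the integrin genes if (1.05), mys (0.83) and mew (0.59) and the adaptors parvin (0.65) and Vinc (0.63). These genes are used outside muscle too, and collagen IV is made largely by fat body and blood cells. In the dystrophin complex 2 of 7 rose, Syn2 and the X-linked Scgdelta, the latter from 5.40 to 22.1 CPM (2.02, adjusted p = 0.002). Of the energy supply genes 6 of 7 rose, among them Gpdh1 by 2.34 (adjusted p = 0.00132), the X-linked Gapdh2 by 1.60 and Pglym78 by 1.33 (all from edgeR). Whole larvae do not show how much of the energy supply counts came from muscle. Of the X-linked genes of the 12 lists 10 of 21 (47.6%) rose, near the 45.9% of all X-linked protein-coding genes tested. Of their autosomal genes 25 of 81 (30.9%) rose and 9 (11.1%) fell, against 17.4% and 21.2% of all autosomal protein-coding genes tested.

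The lists for building and innervating muscle gave mixed directions. Of all genes tested, 20.8% were higher and 17.7% lower, and none of these small lists was tested against those shares. Of 11 transcription factors, 1 rose and 3 fell, and Mef2, the main activator of muscle structural genes, had a log2 fold change of 0.32 (edgeR adjusted p = 0.0865). The gene that rose, lmd, had 4, 0 and 4 counts in females and 236, 71 and 62 in metafemales. Those that fell were twi (1157, 1670 and 37 counts in females and 41, 67 and 45 in metafemales), vg by 1.16 and salm by 0.81, of which vg is also in the imaginal disc list below. Of 9 fusion genes 1 passed the test, hbs, which fell by 0.92 (adjusted p = 0.00179). Among 7 genes of the neuromuscular junction, the glutamate receptor subunit gene GluRIIC (1.22) and the X-linked scaffold gene dlg1 (0.63) rose, and the receptor subunit gene GluRIIB fell by 1.13. Of 14 non-muscle actin and myosin genes, the X-linked light chain Mlc-c rose by 0.52 while cpa and chic fell by 0.31 and 0.27, and the list median was -0.05. Of the 5 flight muscle forms, Act88F had 0 to 14 counts, fln 0 to 6, Act79B 5 to 38, TpnC4 0 to 75 and TpnC41C 160 to 659 counts in the 9 libraries.

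**Figure D5:**
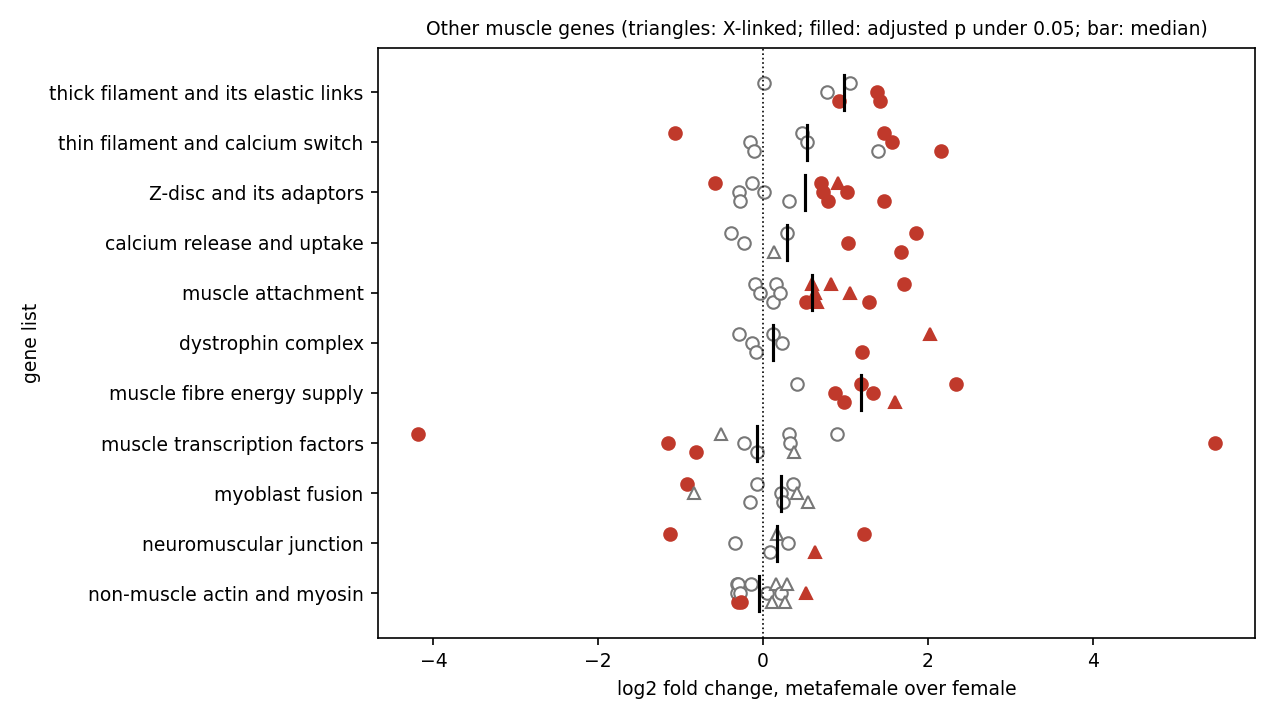
Log2 fold change of metafemales against females for each tested gene of the muscle lists other than the flight muscle forms, with 1 point per gene, a triangle for X-linked genes, a filled symbol where the test was passed and a bar at the list median. The energy supply list has the highest median (1.18), the highest single point is lmd of the transcription factor list, and those of the transcription factor and the non-muscle lists centre near 0.

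Some markers of other tissues also differed between metafemales and females, where 20.8% of all genes tested were higher and 17.7% lower. The calls in the blood cell, epidermis and neuron lists were few in number. No marker list was tested against these shares. The 6 salivary gland markers summed to 908 to 1902 CPM in metafemales and 6109 to 7660 CPM in females, and all 6 fell. The 8 gut markers summed to 4884 to 6084 CPM against 2873 to 3486 CPM, with 6 higher, and the 8 imaginal disc markers to 373 to 736 CPM against 773 to 898 CPM, with 5 lower. The 6 blood cell markers summed to 739 to 1033 CPM against 560 to 658 CPM, with Hml and Pxn higher and srp lower. The 8 epidermis markers summed to 5143 to 6314 CPM against 2642 to 4700 CPM, with Cpr65Av and Ccp84Ab higher and Lcp1 lower, while Lcp3 and Lcp4, which make up most of the sum, did not pass the test (adjusted p = 0.30 and 0.057). The fat body sums overlapped, at 41850 to 60290 CPM in metafemales and 48360 to 63820 CPM in females, yet 3 of 7 markers fell, with log2 fold changes of -2.504 for Fbp1, -0.82 for Fbp2 and -0.80 for Lsp2. The neuron sums overlapped too, with para (1.59) and ChAT (1.014) higher among 8 (all from edgeR). No defining marker of these lists had 0 counts when summed over the 3 female libraries or over the 3 metafemale libraries. These marker sums do not tell the amount of a tissue apart from its state or the stage of the larva. The part of tissue composition or of larval stage in the values of the 10 contractile genes was not tested.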

How the data were processed

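Hisat2 2.0.5 was used by the authors to align paired reads (150 bases) to BDGP6, and they estimated transcripts with StringTie 1.3.3 and the annotation of Ensembl release 102. They deposited 1 table of expected counts per transcript, which held whole numbers and was not normalized. Whether counting used strand is not given in the sources used here. Libraries were assigned by column names and sample labels. Of 34919 FlyBase transcripts, 34750 were paired with genes through Ensembl release 115 and summed, and 169 were left out. The 8017 assembled transcripts entered the library totals only. A level of 3 counts, 0.0163 to 0.0229 CPM, was taken as the smallest detectable, which covers counting error only.

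Each pair of groups was fitted in R 4.3.3 with edgeR 4.0.16 (TMM scaling, quasi-likelihood test after filterByExpr, with p adjusted by Benjamini-Hochberg across every gene in the fit), calling genes at an adjusted p under 0.05. The standard error is the log2 fold change divided by the square root of F. Fits were tried on simulated data with the same spread set for all genes and transcripts, which does not show how they work at the spread of these libraries. Alternatives were DESeq2 1.42.0, other scalings, no filter, a fold threshold of 1 on the log2 scale, the replicate number as a block, all 9 libraries in 1 fit, and leaving out each library.

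The 10 genes and all lists were chosen with earlier results of these data known. All 10 are named, as are transcripts with 10% or more of their gene's counts or that were called, up to 3 called genes per direction in each muscle list and its called X-linked genes, and the 10 other genes most correlated with the mean of the 10. Mef2, the flight muscle forms, Lasp, Argk1 and the markers of other tissues fall outside this rule and were chosen after their values were seen. Figures were drawn with matplotlib 3.10.9 in Python 3.11.15.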

Additional observations from a re-analysis of the deposited data

How the results depend on the processing

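Of the 10 contractile genes, 9 rose in metafemales against females. The number was 4 with all 9 libraries in 1 fit, 6 with the fold threshold, 10 with the replicate block, which added sls (adjusted p = 0.0485), and 3 to 9 when single libraries were left out. All genes called fell from 4607 to 1745 with the fold threshold. Of all genes tested, 20.8% were called higher in the main fit and 9.89% with the fold threshold. This share was 14.7% with all 9 libraries in 1 fit and 18.7% with the block. Without single libraries 1871 to 2298 genes were called higher, against 2493 in the main fit. Against males the 5 calls became 3 with the column total, with the annotated total, with the replicate block and with the fold threshold, 9 with DESeq2, and 1 to 5 without single libraries. The calls under the block were up, wupA and sls, so that Act57B, Tm2 and Act87E were lost and sls gained. Of all genes tested against males, 17.4% were called higher in the main fit and 17.1% with DESeq2. This share was 11.0% with the column total, 10.7% with the annotated total and 10.1% with the block. The 8 transcript calls became 26 of 75 tested with DESeq2, where 4383 of all 34313 transcripts tested were called higher. Without single libraries they became 0 to 4, where 116 to 664 of all transcripts tested were called higher. The replicate block called 0 of all 28020 transcripts tested, so that its 0 was not particular to these genes. Over all genes, same-numbered libraries did not all deviate together (r for numbers 1, 2 and 3 was 0.034, -0.077 and 0.104 between metafemales and females, 0.24, 0.224 and -0.099 between males and females, and 0.091, -0.323 and -0.145 between metafemales and males), and nothing in the labels ties a number to a shared culture, so the libraries were treated as unpaired. The 10 genes themselves were mostly highest in replicate 1 of each group, and the block lowered the standard error of Mhc from 0.37 to 0.15. In males against females none of the 10 was called in any setting, and directions turned: the log2 fold change of Mhc was -0.013 with the block, and that of wupA 0.092 with the column total and 0.062 with the annotated total. Leaving out single libraries moved these values from -0.37 to 0.48 for Mhc, -0.11 to 0.49 for Mlc1, -0.067 to 0.637 for Mlc2, -0.11 to 0.29 for up, -0.21 to 0.25 for wupA, -0.078 to 0.449 for Tm1, -0.15 to 0.34 for Tm2 and -0.12 to 0.46 for Act57B. The cause was not tested. Scaling by annotated counts set the median of all genes at -0.17 in metafemales against females, from -0.02, and scaling by the column total set that of males against females at 0.12, from 0.01. The total counts limit none of the 10 genes, and 3 libraries per group limit all comparisons.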

Other observations

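Among 13957 genes ranked over the 9 libraries, the 10 whose log2 CPM followed the mean of the contractile genes most closely were Obsc, Eno, l(3)mbn, NijB, Pglym78, Mp20, Mf, CG10512, Glyp and PyK, with Pearson's r from 0.985 (Obsc) to 0.975 (PyK). The giant sarcomere kinase gene Obsc was at 32.2 CPM in females, 34.6 CPM in males and 85.6 CPM in metafemales, as means of 3 libraries. Eno encodes the glycolytic enzyme enolase and was at 335, 355 and 879 CPM in the same order, and Glyp, glycogen phosphorylase, was at 185, 191 and 377 CPM. Obsc, Pglym78, Mp20, Mf and PyK are also in the muscle lists. These values include the difference between groups, and r was above 0.9 for 368 of the ranked genes (2.64%), with a median of -0.31 over all of them.

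In males against females, 3 of 101 tested genes of the muscle lists passed the test with edgeR, 2 higher (1.98%) and 1 lower (0.99%), where 19.5% of all genes tested were higher and 1.28% lower. How much of that 19.5% came from testis was not tested. Lasp, a Z-disc adaptor that binds actin, rose by 0.60 on the log2 scale (adjusted p = 0.036), and lmd rose, with 4, 0 and 4 counts in females and 41, 157 and 50 in males. Argk1, the arginine kinase that buffers ATP in muscle, fell by 1.11 (adjusted p = 0.0038).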
